A study of Mus musculus with 12 samples.

Results

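Nfil3 and 9 genes of the circadian clock and its output (Dbp, Tef, Hlf, Per2, Per3, Nr1d1, Nr1d2, Arntl and Ciart) were followed in colon libraries of mice with chemically induced colitis. They are the 10 of 21899 genes in the deposited table that carry these symbols, and all 10 passed the filter on low counts. The genes were chosen with results of this contrast known. The differences between genotypes below are therefore a description of these genes and are not independent evidence.

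RNA came from whole colon tissue of 12 mice, 1 library per mouse, and all 12 mice had been given 2.5% DSS (dextran sulfate sodium), which damages the lining of the colon, for 7 days. In 6 mice Pck1, the cytosolic phosphoenolpyruvate carboxykinase of gluconeogenesis, was deleted in intestinal epithelial cells (CKO, here the knockout). The other 6 were littermates labelled WT (here the control). The labels do not name the Cre driver, the age, the sex or the time of day at which tissue was taken, and no mice without DSS were used here. Clock transcripts cycle over the day, so the differences and the variation between mice below are at unknown collection times, whose part in them was not tested. Total counts ran from 15348192 to 18211663 in the knockout and from 15881625 to 19138507 in the control libraries, and Pck1 stood at 2.28 to 7.32 CPM (counts scaled to the size of each library) against 34.5 to 84.7 CPM. Summed epithelial markers (Epcam, Cdh1, Krt8, Krt19, Vil1 and Krt20) were at 7579 to 8606 CPM in knockout mice and 8089 to 11439 CPM in controls, so epithelium was present in every library, beside muscle, stroma and immune cells. Exocrine pancreas markers (Cpa1, Cela3b, Pnlip, Prss2, Ctrb1 and Cel) were found too. Their sums ran from 1.60 to 1061 CPM in knockout mice and from 0.925 to 15336 CPM in controls, highest in control replicate 6. In such bulk tissue fewer cells of a type and less RNA per cell cannot be told apart.

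The circadian clock is a feedback loop of transcription that runs in most cells, gut epithelium included. BMAL1, encoded by Arntl, pairs with CLOCK or NPAS2 on E-box sequences and switches on the Per, Cry, Nr1d and Ciart genes, whose products restrain it in turn. NR1D1 and NR1D2 (REV-ERB alpha and beta) repress Arntl, Npas2, Cry1 and Nfil3 through ROR elements. The PAR bZIP factors DBP, TEF and HLF activate genes with a D-box, and NFIL3 (E4BP4) represses through the same D-box, so that the 2 kinds of factor oppose each other at shared targets. Nfil3 is also known outside the clock, for the development of innate lymphoid cells, for its induction by cytokines and for control of lipid uptake in intestinal epithelium.

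Upstream sequences are shown for the members whose windows hold these elements before the start site, to show where the elements of the loop lie in these genes. RefSeq's promoter table (GRCm38.p6) matched 9 of the 10 members, with 11 start sites in all, and has no entry for Per2. Each window runs from 250 bases before the start site to 50 after it, and the 250 bases before the start site are printed 5′ to 3′ along the gene. Capitals mark an E-box (CACGTG), an E′-box (CACGTT), a D-box (TTATGTAA or TTACGTAA) or the core of a ROR element (AGGTCA), each searched on both strands.
Nfil3 (chr13:52981040-52981289, minus strand): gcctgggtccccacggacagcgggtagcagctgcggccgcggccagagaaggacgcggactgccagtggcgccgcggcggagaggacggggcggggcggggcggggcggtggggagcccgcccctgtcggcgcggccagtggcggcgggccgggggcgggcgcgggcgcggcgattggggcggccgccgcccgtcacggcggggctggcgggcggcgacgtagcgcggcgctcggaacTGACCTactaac
Tef (chr15:81811164-81811413, plus strand): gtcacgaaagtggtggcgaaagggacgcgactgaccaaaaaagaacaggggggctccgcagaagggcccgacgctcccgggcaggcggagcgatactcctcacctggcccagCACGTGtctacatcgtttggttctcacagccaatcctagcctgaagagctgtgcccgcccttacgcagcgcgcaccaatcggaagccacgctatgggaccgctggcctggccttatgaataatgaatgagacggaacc
Per3 (chr4:151044666-151044915, minus strand): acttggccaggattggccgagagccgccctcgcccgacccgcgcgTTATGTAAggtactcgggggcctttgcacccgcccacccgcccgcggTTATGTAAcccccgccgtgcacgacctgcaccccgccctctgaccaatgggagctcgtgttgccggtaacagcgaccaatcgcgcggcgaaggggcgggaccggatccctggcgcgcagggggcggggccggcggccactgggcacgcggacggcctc
Ciart (chr3:95882229-95882478, minus strand): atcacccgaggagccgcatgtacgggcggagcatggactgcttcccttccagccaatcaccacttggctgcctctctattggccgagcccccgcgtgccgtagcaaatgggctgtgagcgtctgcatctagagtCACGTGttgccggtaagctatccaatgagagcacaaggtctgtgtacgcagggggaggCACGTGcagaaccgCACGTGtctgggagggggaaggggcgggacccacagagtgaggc
Nr1d1 (chr11:98775378-98775627, minus strand): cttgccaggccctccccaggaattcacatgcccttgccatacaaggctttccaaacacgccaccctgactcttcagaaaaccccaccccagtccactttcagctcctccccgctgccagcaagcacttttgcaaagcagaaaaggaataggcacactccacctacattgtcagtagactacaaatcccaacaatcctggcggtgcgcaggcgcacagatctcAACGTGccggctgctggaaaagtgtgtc
Nr1d2 (chr14:18239107-18239356, minus strand): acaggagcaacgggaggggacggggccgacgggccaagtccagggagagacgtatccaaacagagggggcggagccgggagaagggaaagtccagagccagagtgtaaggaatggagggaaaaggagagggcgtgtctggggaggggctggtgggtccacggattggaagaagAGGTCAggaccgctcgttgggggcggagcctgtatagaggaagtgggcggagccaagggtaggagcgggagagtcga

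Over whole windows, an E-box was found in 2 of the 9 matched members, Tef (both start sites) and Ciart (3 matches), against 7.15% of all 32851 windows in the table. The D-box was found in 1 member, Per3 (2 matches), against 1.06% of all windows. The ROR core was found in 3 members, Nfil3 (reverse strand, 12 bases before the start site), Nr1d2 and, at 1 of its 2 start sites, Arntl, against 16.3% of all windows. The E′-box was found in Nr1d1 alone among the matched members, against 4.68%. The windows of Dbp and Hlf held none of these letters. A match describes the sequence and is not evidence of binding, and no match says only that these letters are not in this window.

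Nfil3, the D-box repressor, was higher in the knockout colon. Its level was 22.7, 38.6 and 55.9 CPM (lowest, median and highest of 6 mice) in the knockout, against 9.17, 11.2 and 23.4 CPM in the control. Of the 6 knockout libraries 5 lay above all controls, and the exception was knockout replicate 4, at 22.7 CPM, just under control replicate 4, at 23.4 CPM. Mean levels were 39.4 ± 11.6 against 13.5 ± 5.58 CPM (knockout against control, SD, n = 6 each), a log2 fold change of 1.55 with an SE of 0.26. Without both of these libraries, a setting chosen after seeing the data, the log2 fold change was 1.90.

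**Figure D1:**
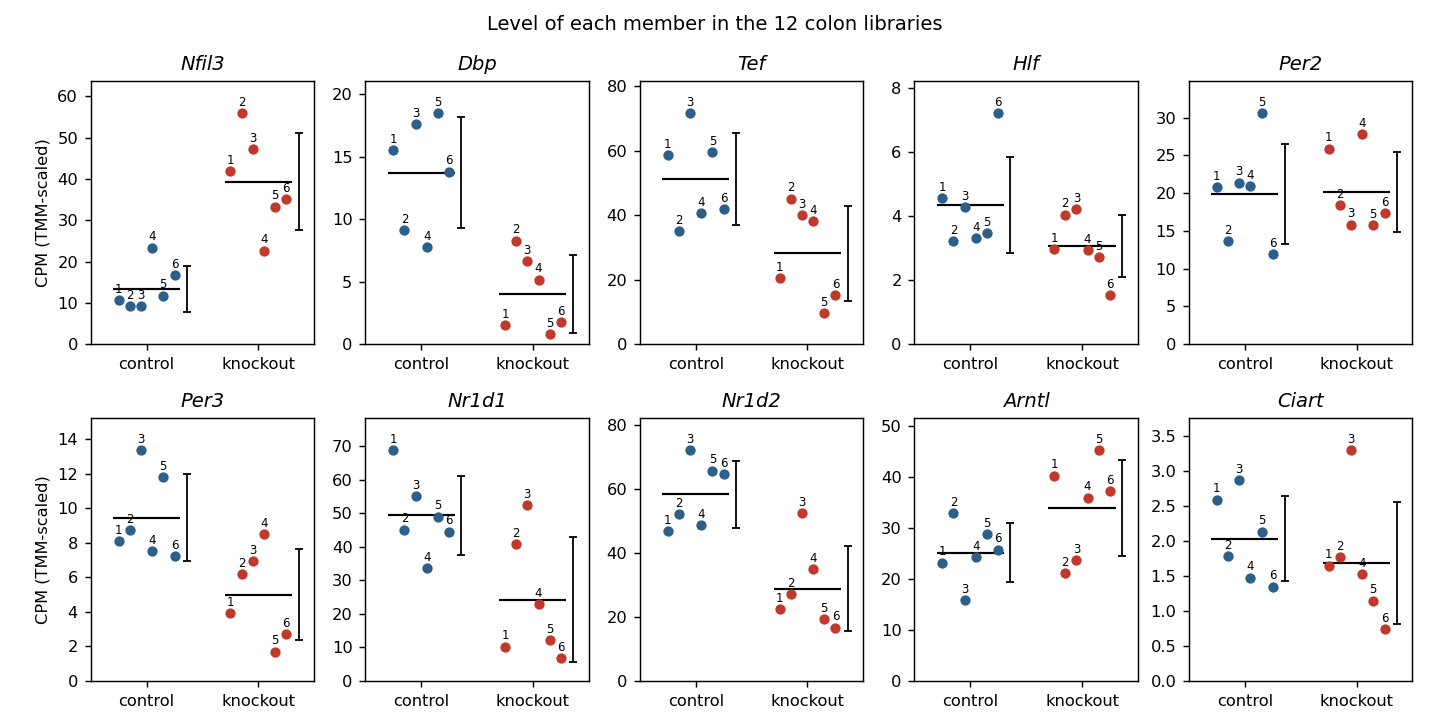
TMM-scaled CPM (y axis from 0) of each of the 10 genes in the 6 control (blue) and 6 knockout (red) libraries, numbered by replicate, with the mean (line) and the SD (bar). Nfil3 is higher in 5 of 6 knockout mice than in any control, while Dbp, Per3 and Nr1d2 are lower in 5 of 6 knockout mice than in any control.

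The PAR bZIP activators had lower means in the knockout, in unequal measure. Dbp stood at 0.784, 3.48 and 8.28 CPM (lowest, median and highest) in the knockout against 7.75, 14.7 and 18.5 CPM in the control. It was below every control in 5 of 6 knockout mice, with knockout replicates 5, 1 and 6 lowest at 0.784, 1.52 and 1.79 CPM. Its mean was 29.4% of the control mean, and its log2 fold change of -1.76 ± 0.48 (SE) was the most negative of the 10. Tef stood at 9.71, 29.4 and 45.1 CPM against 35.1, 50.3 and 71.5 CPM, a log2 fold change of -0.86 ± 0.33 (SE), with 3 knockout mice below all controls and the other 3 within their range. Hlf had few counts, at 1.54, 2.96 and 4.22 CPM against 3.23, 3.89 and 7.22 CPM, and its log2 fold change was -0.50 ± 0.26 (SE). Its highest control value belonged to control replicate 6, which stood apart from the other 5 controls at 3.23 to 4.56 CPM. That library also had the highest sum of exocrine pancreas markers, at 15336 CPM. With the pancreas marker level as a covariate the log2 fold change of Hlf was -0.45.

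The REV-ERB genes were lower on average too, but with 1 or 2 knockout mice at control levels. Nr1d1 stood at 6.85, 17.5 and 52.5 CPM (lowest, median and highest) in the knockout against 33.6, 47.0 and 68.8 CPM in the control. Knockout replicates 2 and 3, at 40.9 and 52.5 CPM, lay inside the control range, and the other 4 knockout mice lay below it. The log2 fold change was -1.03 ± 0.43 (SE). For Nr1d2 the levels were 16.7, 24.8 and 52.4 CPM against 46.8, 58.4 and 72.2 CPM, with a log2 fold change of -1.02 ± 0.25 (SE). Knockout replicate 3 alone reached the control range of Nr1d2.

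Of the period genes, which encode repressors of CLOCK and BMAL1, Per3 had a lower mean in the knockout and the means of Per2 lay close together. Per3 stood at 1.69, 5.05 and 8.47 CPM (lowest, median and highest) against 7.22, 8.40 and 13.4 CPM, and 5 of 6 knockout mice lay below all controls (log2 fold change -0.92 ± 0.33, SE). Per2 stood at 15.8, 17.9 and 27.9 CPM against 11.9, 20.9 and 30.6 CPM, with every knockout mouse inside the control range. Its log2 fold change was 0.02 ± 0.22 (SE), and its sign turned when single libraries were left out. Ciart, which encodes the repressor CHRONO, stood at 0.741, 1.58 and 3.30 CPM against 1.35, 1.96 and 2.87 CPM (log2 fold change -0.27 ± 0.32, SE), with 2 knockout mice below all controls and 1 above them. Arntl, the positive limb, leaned the other way at 21.3, 36.6 and 45.4 CPM against 15.9, 25.0 and 33.0 CPM (log2 fold change 0.43 ± 0.20, SE). In 4 of 6 knockout mice Arntl lay above all controls, and knockout replicates 2 and 3, at 21.3 and 23.7 CPM, lay within them.

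In edgeR's quasi-likelihood fit over 14393 tested genes the adjusted p of the 10 members ran from 0.0512 (Nfil3) to 0.966 (Per2), so 0 of 10 passed the threshold of 0.05. Over all tested genes 4 higher and 4 lower genes passed, or 0.0278% in each direction. At an unadjusted p under 0.05 there was 1 higher member (Nfil3) and 5 lower members (Dbp, Tef, Per3, Nr1d1 and Nr1d2), beside 13.1% of all tested genes higher and 9.48% lower. In 0 of 10 members did the 2 groups not overlap at all, beside 0.882% of tested genes with every knockout library above the controls and 0.639% with every one below. The median log2 fold change was -0.68 over the members and -0.03 over all tested genes. Since the members were chosen on this contrast, nothing is read from these shares.

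The calls depended on the test, the scaling, covariates and single libraries. Of the 25 alternatives, Nfil3 passed in 11, Nr1d2 in 7 and Dbp in 6. DESeq2 called Nfil3 higher and Dbp and Nr1d2 lower, with adjusted p values of 9.54e-06, 0.00515 and 0.00344. In the authors' deposited table the same 3 genes had adjusted p values of 1.16e-05, 0.00616 and 0.00425, where 4.65% of its genes were higher and 1.70% lower at under 0.05, by a test that is not named. In edgeR, Nfil3, Dbp and Nr1d2 also passed without knockout replicate 4 (adjusted p 0.0195, 0.0497 and 0.0316) and without control replicate 4 (0.0110, 0.0413 and 0.0325), and Nfil3 passed without control replicate 6 (0.0493). Without both libraries numbered 4, Per3 passed beside these 3 (0.0460). In edgeR over all 12 libraries, Nfil3 passed with DESeq2's size factors (adjusted p 0.0492), library size only (0.0450) and the pancreas covariate (0.0310). With library size only Nr1d2 passed too (0.0469). Nfil3 passed in limma voom (adjusted p 0.0482), and Nfil3, Dbp and Nr1d2 passed in limma-trend on log2(TPM + 1) (0.0362, 0.0462 and 0.0405). In limma voom with sample quality weights 2 higher members (Nfil3 and Arntl) and 5 lower members (Dbp, Tef, Per3, Nr1d1 and Nr1d2) passed, with log2 fold changes of -2.83 for Dbp, -1.44 for Tef, -1.54 for Per3 and -1.96 for Nr1d1. The direction of the 9 members other than Per2 was the same under all 25 alternatives.

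**Figure D2:**
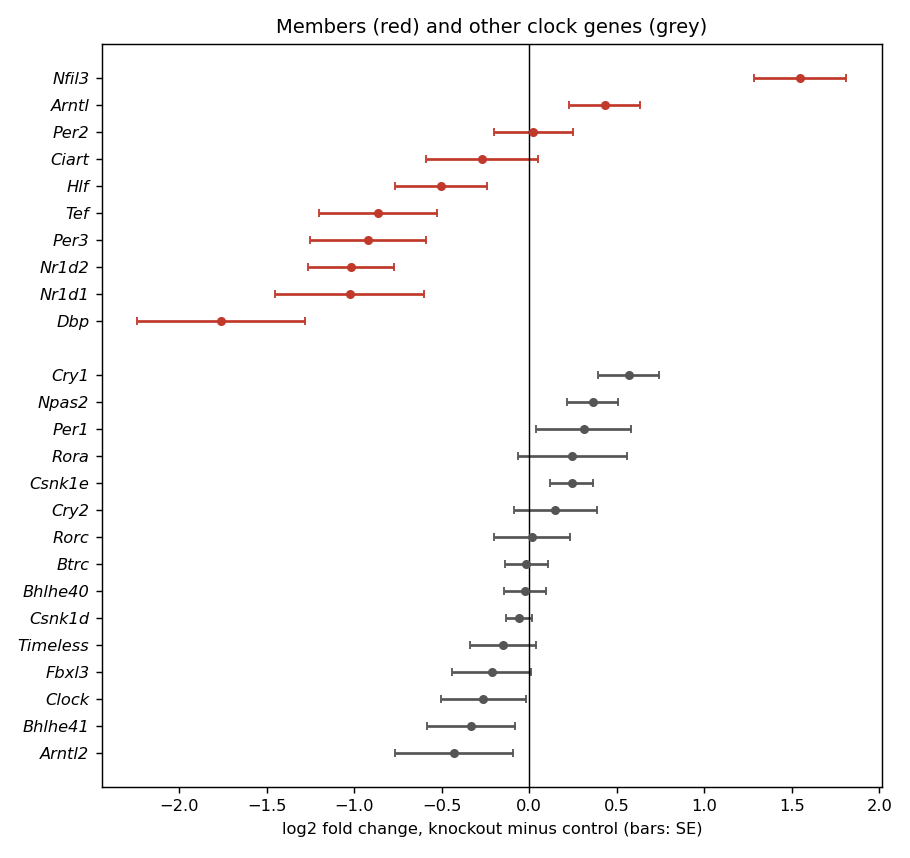
Log2 fold change of knockout minus control (x axis, points) with its SE (bars) for the 10 members (red) and the 15 tested genes among the other clock genes (grey), ordered within each set. Nfil3 lies farthest above 0 at 1.55 and Dbp farthest below at -1.76, while the other clock genes lie between -0.43 and 0.57.

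Compared per transcript length, as deposited TPM, the order of the members differed between the genotypes. In the control, Nr1d1 led at 32.8 ± 8.11 TPM (SD, n = 6), followed by Nr1d2 at 22.7 ± 3.60, Tef at 22.6 ± 6.21, Arntl at 16.0 ± 3.54, Dbp at 14.7 ± 4.55 and Nfil3 at 12.1 ± 5.27 TPM. Per2 (6.15 ± 1.95 TPM), Ciart (3.01 ± 0.75), Per3 (2.88 ± 0.74) and Hlf (1.39 ± 0.48) came last. The means of neighbours in this order differed by less than the larger of their SDs except at the steps from Nr1d1 to Nr1d2, from Tef to Arntl, from Nfil3 to Per2, from Per2 to Ciart and from Per3 to Hlf. In the knockout Nfil3 led at 36.6 ± 10.9 TPM, ahead of Arntl at 22.8 ± 6.83 TPM, Nr1d1 at 16.4 ± 11.9 TPM, Tef at 12.9 ± 6.34 TPM and Nr1d2 at 11.5 ± 4.38 TPM. Per2 followed at 6.53 ± 1.67 TPM and Dbp at 4.53 ± 3.74 TPM, then Ciart at 2.40 ± 1.22, Per3 at 1.58 ± 0.78 and Hlf at 1.23 ± 0.27 TPM. For Hlf the TPM means differed less than its scaled counts did (log2 fold change -0.18 in the authors' deposited table). In the knockout order, steps beyond the larger SD were those from Nfil3 to Arntl and from Nr1d2 to Per2.

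**Figure D3:**
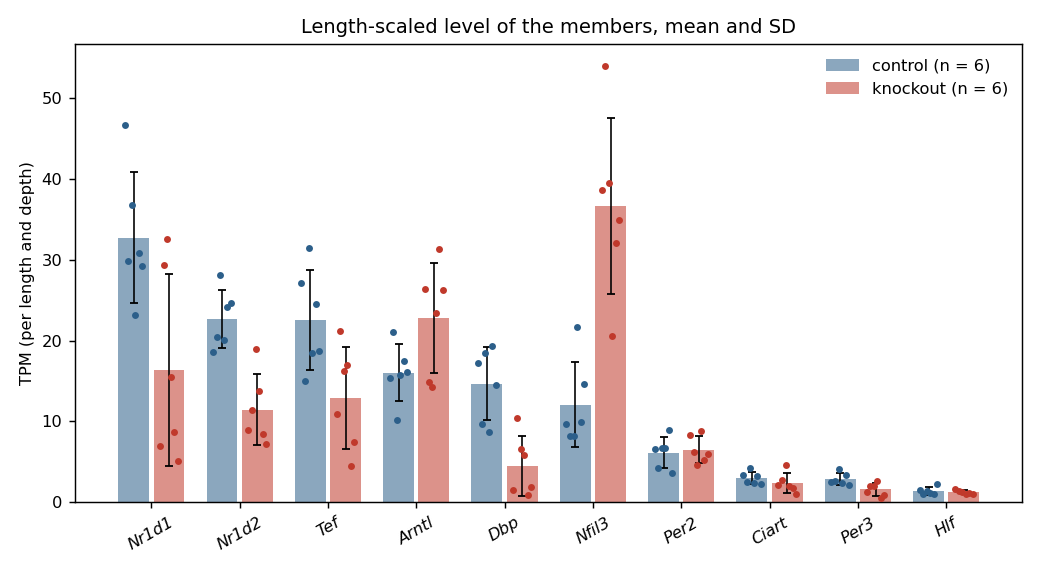
Deposited TPM (y axis from 0), which is scaled for transcript length and depth, of the 10 members in control (blue) and knockout (red) colon, as mean (bar), SD (line) and single libraries (points), ordered by the control mean. Nfil3 stands at 12.1 TPM in the control, behind 5 other members, and leads in the knockout at 36.6 TPM.

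The D-box repressor and its activators can be set against each other within each library. The ratio of Nfil3 to the summed TPM of Dbp, Tef and Hlf was 0.868, 2.19 and 4.96 (lowest, median and highest) in the knockout and 0.160, 0.269 and 0.767 in the control. Every knockout library lay above every control, again with knockout replicate 4 (0.868) and control replicate 4 (0.767) as the nearest. The ratio of Arntl to the summed TPM of Nr1d1 and Nr1d2 was 0.276, 1.22 and 2.15 in the knockout and 0.157, 0.309 and 0.420 in the control. Knockout replicates 2 and 3, at 0.366 and 0.276, lay within the controls, and the other 4 knockout mice lay above them. Both ratios set a member with a higher mean over members with lower means, all chosen on this contrast. That choice favours separate groups in advance. The ratios carry no test, and no share over ratios of other genes was computed.

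The members also varied between mice of the same genotype, which the choice of genes did not use. Each mouse's log2 CPM was taken as its deviation from its genotype mean, and each of the 45 member pairs was tested over the 12 libraries by permutation within genotype (100000 resamples, two-sided, Benjamini-Hochberg over 45). Dbp and Tef varied together most closely (Pearson r = 0.95, permutation p = 0.0003, adjusted 0.0135; Spearman rho = 0.93, permutation p = 0.00147, adjusted 0.0493). The relation held within the knockout (r = 0.97) and the control (r = 0.85), and r was 0.90 without the 2 libraries farthest from the median, knockout replicates 5 and 2. Tef and Per3 passed as well (r = 0.93, permutation p = 0.00089, adjusted 0.0200; rho = 0.85, permutation p = 0.00618, adjusted 0.0630), with r = 0.97 and 0.74 within knockout and control and 0.90 without the 2 farthest libraries. Nr1d1 and Ciart were the third (r = 0.82, permutation p = 0.00206, adjusted 0.0309; rho = 0.80, permutation p = 0.00219, adjusted 0.0493), with r = 0.85 and 0.80 within the genotypes. Without knockout replicates 3 and 6, the 2 farthest from the median, that r was 0.52, so this relation rests in part on those mice. With 1 library left out in turn, Dbp and Tef passed in all 12 cases. Tef and Per3 did not pass without knockout replicate 1, 3 or 6 (adjusted p up to 0.0902), nor Nr1d1 and Ciart without knockout replicate 2, 3, 4 or 6 or control replicate 4 (up to 0.132).

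The remaining pairs did not pass the adjusted threshold. Among the 7 members with a negative fold change (Dbp, Tef, Hlf, Per3, Nr1d1, Nr1d2 and Ciart), r was positive in 21 of 21 pairs, from 0.34 to 0.95, and positive in 21 pairs within the knockout and 19 within the control. Arntl had a negative r with each of these 7 genes, from -0.77 to -0.49 over the 12 libraries, from -0.89 to -0.63 within the knockout and from -0.72 to -0.25 within the control. Its strongest was with Tef (r = -0.77, permutation p = 0.00662, adjusted 0.0596; rho = -0.73, permutation p = 0.0126, adjusted 0.0630), and with Dbp r was -0.74 (permutation p = 0.0100, adjusted 0.0746; rho = -0.65, permutation p = 0.0382, adjusted 0.101). Without knockout replicates 5 and 2, r was -0.65 for Tef and -0.57 for Dbp. These pairs share their libraries and scaling, and this grouping was made after the values were seen. The share of all gene pairs that vary as closely within genotype was not computed.

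**Figure D4:**
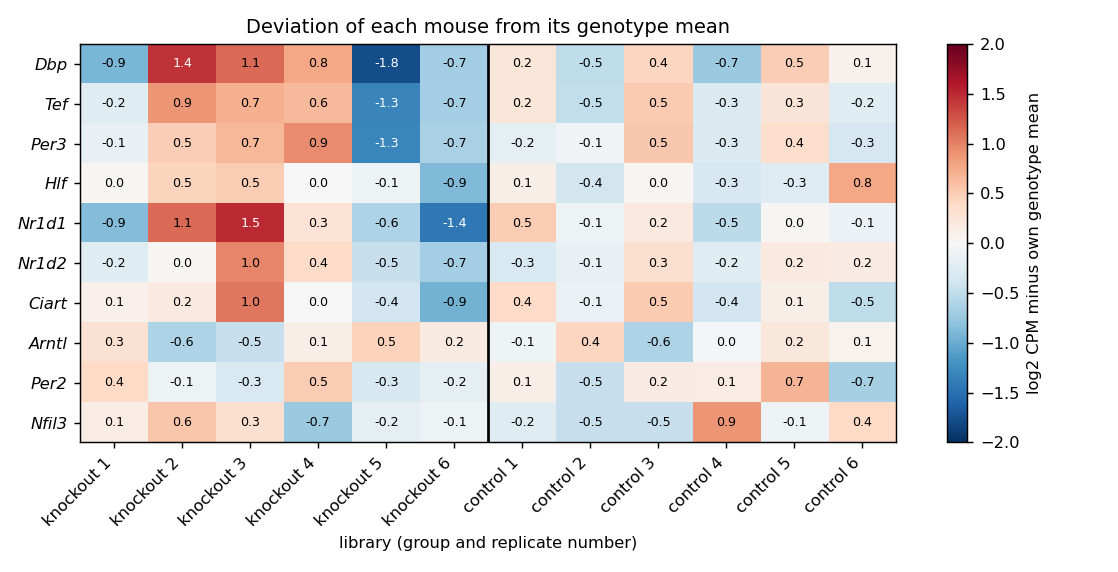
Heat map of log2 CPM of each member (rows) in each library (columns) as the deviation from its own genotype mean (colour and printed value). Knockout replicates 2 and 3 are above their genotype mean in Dbp, Tef, Per3, Hlf and Nr1d1 and below it in Arntl, and knockout replicates 5 and 6 are the reverse.

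Nfil3 had no relation with another member that passed. Its r with the other 9 ran from -0.28 to 0.30 over the 12 libraries, with adjusted permutation p values from 0.530 to 0.990, and was 0.03 with Dbp and 0.08 with Nr1d1. Those values pool opposite signs: r was positive with 7 of the 9 within the knockout and with 2 of the 9 within the control. With Nr1d1 r was 0.39 in the knockout and -0.73 in the control, with Ciart 0.43 and -0.75, and with Dbp 0.29 and -0.51. The difference between the genotypes was not tested. Without control replicate 4 the highest r with the other 9 was 0.59. Each member was also compared with the mean log2 CPM of 11 marker lists for cell types of the colon wall and its neighbours, 110 relations in all. The 4 that passed were all with Nfil3, and all were positive. The share of all tested genes that vary as closely with these lists was not computed, so the count is not a trait of Nfil3 alone. For the 7 members with a negative fold change, r with smooth muscle markers ran from 0.13 (Hlf) to 0.56 (Dbp). With epithelial markers it ran from -0.04 (Nr1d2) to 0.50 (Ciart). With T and NK cell markers r was negative for all 7, from -0.74 (Ciart) to -0.46 (Dbp), where Arntl had 0.65. With B and plasma cell markers r was negative for all 7 too, from -0.72 (Nr1d2) to -0.42 (Dbp). Spearman rho with smooth muscle markers was larger than r, from 0.26 (Hlf) to 0.75 (Nr1d1). None of these passed (adjusted permutation p of 0.142 or more for r and 0.117 or more for rho).

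Nfil3 varied with endothelial markers (Pecam1, Cdh5, Vwf, Plvap and Kdr) at r = 0.88 (permutation p = 0.00013, adjusted 0.0143; rho = 0.86, permutation p = 0.00103, adjusted 0.0488). With fibroblast markers (Dcn, Col1a1, Col3a1, Pdgfra and Lum) r was 0.90 (permutation p = 0.00045, adjusted 0.0247; rho = 0.92, permutation p = 0.0003, adjusted 0.0330). With monocyte and macrophage markers r was 0.86 (permutation p = 0.00071, adjusted 0.0260; rho = 0.85, permutation p = 0.00133, adjusted 0.0488), and with neutrophil markers 0.83 (permutation p = 0.00116, adjusted 0.0319; rho = 0.69, permutation p = 0.0189, adjusted 0.189). Within knockout and control r was 0.89 and 0.93 for endothelium, 0.92 and 0.88 for fibroblasts, 0.81 and 0.90 for macrophages and 0.82 and 0.88 for neutrophils. Control replicates 4 and 6 had the highest control levels in all 4 lists (endothelium 5.88 and 5.90 log2 CPM, other controls 5.27 to 5.52). The 4 relations thus share these mice and are not independent of each other. Without control replicate 4 and knockout replicate 2, the 2 farthest from the median of Nfil3, r was 0.89, 0.85, 0.80 and 0.67. With epithelial markers r was -0.31 (permutation p = 0.384, adjusted 0.741; rho = -0.29, permutation p = 0.392, adjusted 0.786; 0.22 within the knockout and -0.55 within the control).

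The neutrophil relation lost its call when any 1 of 10 libraries was left out (all but control replicates 3 and 5), with an adjusted permutation p of up to 0.199. The macrophage relation lost it without any 1 of knockout replicates 2 to 5 and control replicates 1, 2 and 5, the fibroblast relation without knockout replicates 2 to 5 or control replicate 2, and the endothelial relation without knockout replicate 2 or 3. Over all these settings r for the 4 relations stayed between 0.76 and 0.94.

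**Figure D5:**
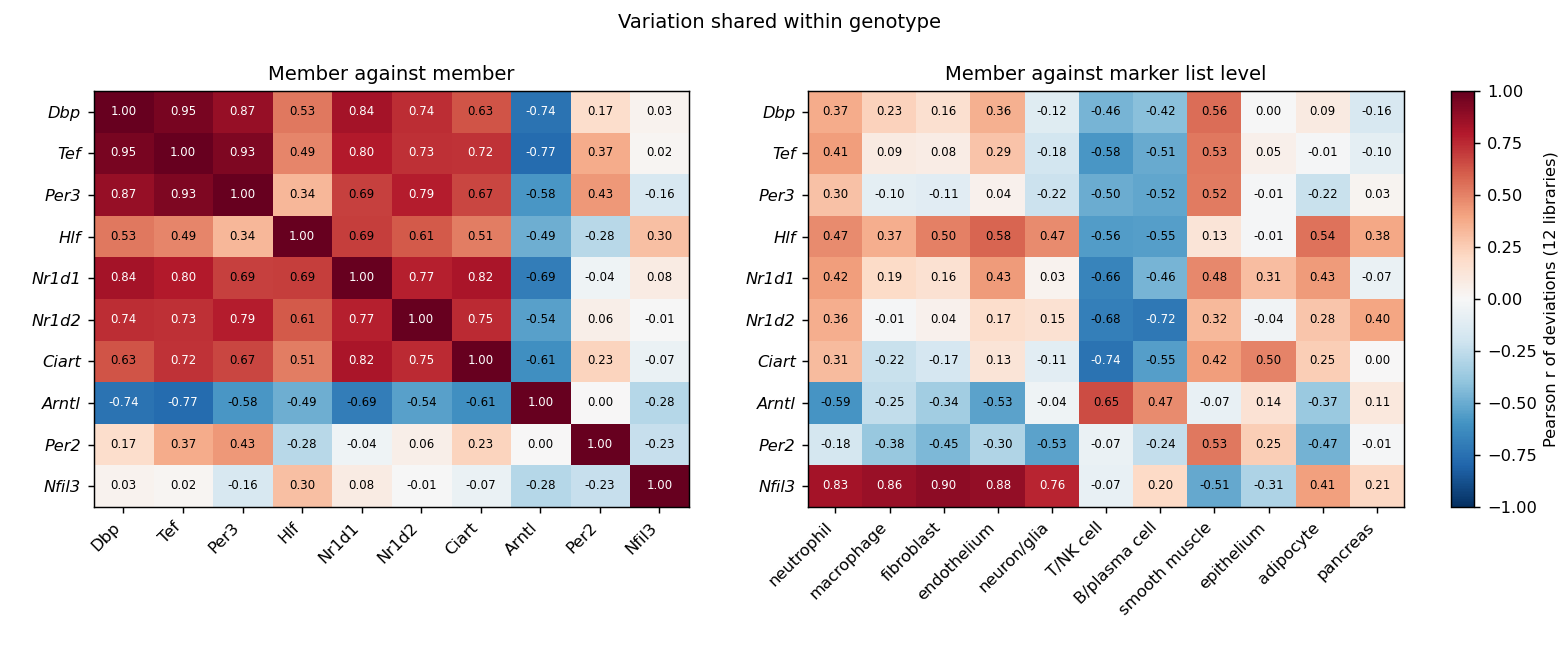
Pearson r of deviations from the genotype mean over 12 libraries, for each pair of members (left) and for each member against the mean level of 11 marker lists (right), as colour and printed value. The 7 members with a negative fold change are positively related to each other and negatively to Arntl, whereas Nfil3 has a pooled r of -0.16 to 0.30 with those 7, of mixed sign within the genotypes, and of 0.83 to 0.90 with neutrophil, macrophage, fibroblast and endothelial markers.

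The same marker lists also differed between the genotypes. Summed neutrophil markers stood at 248.5 to 1217 CPM in knockout mice and 127 to 535 CPM in controls. Of these 8 markers 7 were tested, and 5 were higher at an unadjusted p under 0.05, beside 13.1% of all tested genes. For monocytes and macrophages the sums were 968.5 to 1701 against 694 to 1212 CPM, with 4 of 7 markers higher at that p. For fibroblasts they were 3479 to 8533 against 2108 to 4385 CPM (4 of 5), and for endothelium 295 to 610 against 206 to 312 CPM (4 of 5). None of these lists had a marker without counts in all 12 libraries. Other lists leaned lower in the knockout. Of the 6 epithelial markers, 5 had a fold change below 0 and 4 were lower at that p, beside 9.48% of all tested genes. Of the 5 smooth muscle markers, 5 were below 0 and 2 were lower at that p. With the neutrophil marker level as a covariate in the edgeR fit, the log2 fold change was 0.92 ± 0.19 (SE) for Nfil3, in place of 1.55, and it was -2.47 ± 0.74 for Dbp, -1.93 ± 0.62 for Nr1d1, -1.36 ± 0.34 for Nr1d2 and 0.77 ± 0.22 for Arntl, each farther from 0 than without it. In that fit, 1 higher and 1 lower gene passed over all genes, and the adjusted p of the 10 members was 0.468 or more. The part of the macrophage, fibroblast and endothelial lists in the difference of Nfil3 was not tested. Nor was the part of the epithelial, smooth muscle, T and NK cell and B and plasma cell lists in the lower members.

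The genes whose deviations were most like those of Nfil3 over 12 libraries were Asap3 (r = 0.97), Pde4b (0.97), Zfta (0.97), S1pr1 (0.97) and Chil1 (0.96). Pde4b encodes a cyclic AMP phosphodiesterase and S1pr1 a receptor for sphingosine-1-phosphate. For Dbp they were Tmem276 (0.96), Pxmp4 (0.96), Qsox1 (0.96), Ilvbl (0.96) and Abtb1 (0.96). These were the 5 highest for each among tested genes with a mean of at least 5 CPM, without predicted genes and the members, and carry no test. Each of the 5 named for Dbp, the lowest being Abtb1 at 0.955, had a higher r with Dbp than Tef did (0.952). So close a relation is not particular to the members.

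As a list, the other genes of the clock machinery lay near the whole set of tested genes. Of 17 genes 15 were tested and 0 passed over all genes. At an unadjusted p under 0.05, 2 were higher, a share near the 13.1% of all tested genes, and 0 were lower, beside 9.48%. The 2 were Cry1, a repressor of CLOCK and BMAL1, with a mean of 30.3 ± 8.52 CPM over 6 knockout mice and of 20.4 ± 2.41 CPM over 6 controls (SD; log2 fold change 0.57 ± 0.17, SE), and Npas2, the partner of BMAL1 that can stand in for CLOCK, at 20.4 ± 3.43 against 15.9 ± 2.85 CPM (0.36 ± 0.14). Their edgeR adjusted p values were 0.0820 and 0.158. For Cry1, knockout replicates 2 and 3 were at 19.8 and 20.4 CPM, inside the control range of 17.9 to 24.7 CPM, and the other 4 knockout mice lay above it. Csnk1e, a kinase of the PER proteins, stood at 0.24 ± 0.12 and Bhlhe41, a repressor of E-box genes, at -0.33 ± 0.25 (log2 fold change, SE). Clock itself stood at 99.2 ± 33.3 against 118.8 ± 23.1 CPM and Per1 at 36.6 ± 15.5 against 29.5 ± 7.89 CPM, both named after their values were seen. In control replicate 1 Clock was at 72.7 CPM, apart from the other controls at 123 to 138 CPM. The median log2 fold change of the 15 genes was -0.02, near the -0.03 of all tested genes.

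Genes known to be repressed by REV-ERB proteins included inflammatory genes. Of 8, all tested, 6 were higher and 1 lower at an unadjusted p under 0.05, beside 13.1% and 9.48% of all tested genes, and 0 passed over all genes. Their median log2 fold change was 0.87. The cytokine gene Il6 stood at 2.09 ± 0.73 (log2 fold change, SE), beside Cry1 above. Cx3cr1, the fractalkine receptor gene of macrophages, was the lower one at -0.63 ± 0.13. Il6 stood at 2.12 to 38.8 CPM in the knockout, and its highest control was control replicate 4 at 16.1 CPM, where the other controls were at 1.16 to 5.50 CPM. The neutrophil marker sums given above were also higher in the knockout, and with the neutrophil level as a covariate the log2 fold change was 0.83 for Il6 and 0.95 for Cry1.

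Of 13 genes that cycle in many mouse tissues under control of the clock, all tested, 9 had a fold change above 0 and 4 below. Of these, 2 were higher and 0 lower at an unadjusted p under 0.05, a share near the 13.1% of all tested genes, and the median log2 fold change was 0.03. The 2 were Tsc22d3, the glucocorticoid-induced leucine zipper gene (0.74 ± 0.18, SE), and the tetraspanin gene Tspan4 (0.89 ± 0.28). With the neutrophil level as a covariate the log2 fold change of Tspan4 was 0.15, and its knockout replicate 2, at 77.1 CPM, stood apart from the other 5 at 27.1 to 42.6 CPM. Wee1, the cell cycle kinase with E-boxes in its promoter, stood at -0.44 ± 0.24 and Leo1 at 0.14 ± 0.13. Glucocorticoid-responsive genes were above 0 in 9 of 9, with 6 higher at that p (13.1% of all tested genes) and a median of 0.57, among them Cebpd (1.16 ± 0.25), Fkbp5 (0.98 ± 0.21), Zfp36 (0.54 ± 0.13) and Tsc22d3. None of either list passed over all genes, with an edgeR adjusted p of at least 0.0531. Per1, which glucocorticoids induce, had a log2 fold change of 0.31 ± 0.27 (SE). The neutrophil, macrophage, fibroblast and endothelial sums given above were higher in the knockout too, and with the neutrophil covariate the log2 fold change was 0.60 for Cebpd, 0.49 for Fkbp5 and 0.31 for Zfp36.

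Other lists were tied to Nfil3 itself. Of 5 cytokines known to induce it, Il3 and Il4 were too rare to test. Il10 averaged 2.85 ± 1.49 CPM over 6 knockout mice and 0.831 ± 0.380 CPM over 6 controls (SD; log2 fold change 1.76 ± 0.41, SE; edgeR adjusted p = 0.0541), with every knockout mouse above every control. Over all tested genes, 0.882% had every knockout library above the controls. With the neutrophil covariate the log2 fold change of Il10 was 0.86 (edgeR adjusted p = 0.991). Il7 and Il15 stood at -0.27 ± 0.18 and -0.19 ± 0.14 (log2 fold change, SE). Among innate lymphoid and NK cell factors, 6 of 8 were tested and 0 were at an unadjusted p under 0.05 in either direction, where Il7r stood at 0.69 ± 0.33, Tox at -0.28 ± 0.13, Gata3 at 0.41 ± 0.22 and Id2 at 0.31 ± 0.21. Of 8 intestinal lipid uptake and storage genes 7 were tested, with 2 higher and 2 lower at that p, beside 13.1% and 9.48% of all tested genes. Plin2, which coats lipid droplets, stood at 0.34 ± 0.12 and the fatty acid carrier gene Fabp4 at 0.79 ± 0.33, whereas the enterocyte carrier gene Fabp2 stood at -0.52 ± 0.23 and the desaturase gene Scd1 at -0.36 ± 0.16 (log2 fold change, SE). With the neutrophil covariate the log2 fold change was 0.17 for Plin2, 7.3e-05 for Fabp4, -0.60 for Fabp2 and -0.14 for Scd1. Each of these 3 lists had 0 members past the adjusted threshold.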

How the data were processed

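RNA-seq counts of 12 colon libraries (6 knockout, 6 control) were used; groups and replicate numbers come from the labels. Per the labels' protocols, RNA was taken with Trizol and libraries were made with a SMARTER kit. The authors deposited raw read counts per gene and, per the file headers, TPM per library and per group. The authors deposited, besides, log2 values of knockout over control that match the ratio of their TPM means, with each gene's p-value, raw and adjusted, from an unnamed test. The submitters' processing notes list GRCm38, mm10 and mm39 without roles; for the aligner and strand the sources used here say nothing. Columns of other samples numbered 0.

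Counts were fitted in R 4.3.3 with edgeR 4.0.16 (filterByExpr with minimum count 10 and minimum total 15, TMM, glmQLFit, glmQLFTest, no covariate, all 12 libraries, Benjamini-Hochberg adjustment, threshold 0.05), which tested 14393 of 21899 genes. SEs were derived from the fold change and F. CPM are TMM-scaled; log2 CPM used a prior count of 2. The p-values of these fits set the difference between the groups against the spread between these 6 mice per group. Alternatives used DESeq2 1.42.0, limma 3.58.1 and other scalings, filters and covariates. Permutations were run in Python 3.11.15. The procedures were tested on simulated data.

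The members and lists were chosen with earlier results of these data known. Named are all members, from each further list the genes past the threshold or else the 4 with the smallest p, and the 5 genes most like Nfil3 and Dbp; 1 gene that this rule names is not reported here. All 133 list genes were found in the table by symbol.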

Additional observations from a re-analysis of the deposited data

Results flagged for a closer look

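In 78 groups of 6 libraries, 4 held 1 library whose gap to its nearest neighbour exceeded 0.625 of the group's range (Dixon's 95% limit). Chance flags about 1 in 20 such groups. Hlf in control replicate 6 stood at 7.22 CPM, where the other controls lay at 3.23 to 4.56 CPM. Tspan4 in knockout replicate 2 stood at 77.1 CPM, where the other knockouts lay at 27.1 to 42.6 CPM. Il6 in control replicate 4 stood at 16.1 CPM, where the other controls lay at 1.16 to 5.50 CPM. Clock in control replicate 1 stood at 72.7 CPM, where the other controls lay at 123 to 138 CPM.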

How the results depend on the processing

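Depth limited Ciart, Hlf and Il10, which lay at a few CPM. It also limited Dbp and Per3 in the knockout mice where they were lowest, and so their fold changes and within-knockout correlations. Counts of genes past the adjusted threshold moved most: 4 higher and 4 lower genes became 33 and 19 with DESeq2's size factors, 230 and 45 with library size only, 1103 and 429 in DESeq2, 30 and 19 in limma voom, 1549 and 1339 with sample quality weights, 355 and 48 with limma-trend on log2(TPM + 1), and 75 and 55 with the pancreas marker level as a covariate. With the neutrophil level as a covariate they were 1 and 1. Without both libraries numbered 4, added after seeing the data, they were 1209 and 702. Leaving out 1 library gave 0 to 870 higher and 2 to 402 lower genes. The causes were not tested.

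Higher members at an unadjusted p under 0.05 numbered 2, in place of 1, in DESeq2, with quality weights, limma-trend, the neutrophil covariate or no low-count filter, and under the upper quartile, library size only and DESeq2's size factors. They numbered 1 to 2 with 1 library left out, where lower members numbered 3 to 6 and other clock genes 1 to 3 higher and 0 lower. Other clock genes higher numbered 1 without both libraries numbered 4. Pairs of members that passed numbered 5 with library size only, 6 with log2(TPM + 1) and 1 to 7 with 1 library left out, in place of 3, and marker relations 0 to 4, in place of 4. On log2(TPM + 1), 20 of the 21 pairs named above were positive.

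The log2 fold change of Per2 turned to -0.06 without knockout replicate 1, -0.088 without knockout replicate 4, -0.06 without control replicate 2, -0.088 without control replicate 6 and -0.07 without both libraries numbered 4. With 1 library left out it ran from -0.088 to 0.187 (without control replicate 5). With the neutrophil covariate Wee1 turned to 0.051, Id2 to -0.28 and Per1 to -0.35. Same-numbered mice did not deviate together (correlations from -0.50 to 0.08). These correlations carry no test and cannot settle whether the numbers pair the mice. With the replicate block 0 higher and 1 lower genes passed, and 1 higher and 5 lower members stood at an unadjusted p under 0.05, as without it.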
